A study of Mus musculus with 12 samples.

Results

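The Tcl1 family of the mouse was examined through the 6 genes Tcl1, Tcl1b1, Tcl1b2, Tcl1b3, Tcl1b4 and Tcl1b5, taken by symbol from the deposited gene tables, out of 22619 genes in all. Every one of the 6 was found in all 12 libraries' tables, and each was listed at a single locus. Of these libraries 8 came from C57BL/6 embryos: 2 wild type (control embryo), 3 with Dcaf11 knocked out (KO embryo), and 3 more with Dcaf11 knocked out whose titles carry the word arrest (KO arrest). The other 4 came from embryonic stem cells (ESC) of the 129Sv strain, 2 of them wild type (control ESC) and 2 with Dcaf11 knocked down (KD ESC). The Dcaf11 protein recruits substrates to a cullin-based ubiquitin ligase. RNA with a poly(A) tail was amplified by Smart-seq2, a full-length cDNA method for small amounts of RNA. The labels give neither the stage, age or sex of the embryos nor the number of cells, the knockout allele, the knockdown reagent, or whether the replicates are independent embryos or cultures. Any p-value below hence measures the spread among these libraries alone, which may be technical.

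Proteins of the Tcl1 family are small and bind the pleckstrin homology domain of the kinase Akt, which raises Akt activity. Tcl1 is named for T-cell leukaemia, in which the human gene is switched on by chromosomal rearrangement, and in healthy mice it is known from oocytes, early embryos, embryonic stem cells and developing lymphocytes. The Tcl1b genes are neighbouring copies that have multiplied in the mouse and are known mainly from the egg and the cleaving embryo.

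The 6 genes form 1 cluster on mouse chromosome 12, from 106385243 to 106460947 in the mm9 coordinates of the deposited tables (75.7 kb). On the plus strand lie Tcl1b2 (106385243 to 106393435), Tcl1b1 (106397914 to 106404835), Tcl1b5 (106414568 to 106419355), Tcl1b3 (106429255 to 106433609) and Tcl1b4 (106440632 to 106445203), in this order. Tcl1 (106454965 to 106460947) follows on the minus strand. Bases upstream of 3 transcription starts are shown because they, like the expression results below, separate Tcl1 from the Tcl1b genes (no link was tested). They are RefSeq sequences of the build GRCm38.p6, 5′ to 3′ on the strand of the gene, for Tcl1 at chr12:105222794-105222987 (minus strand), Tcl1b1 at chr12:105159454-105159689 (plus strand) and Tcl1b3 at chr12:105190795-105191042 (plus strand). Each printed run ends where the first annotated exon of any transcript begins, so it stops short of the RefSeq start of the gene. Capitals mark a run of 25 bases that all 5 Tcl1b windows hold. In Tcl1b3 it begins at the first base of the window, so the run may extend further upstream, which was not tested.
Tcl1: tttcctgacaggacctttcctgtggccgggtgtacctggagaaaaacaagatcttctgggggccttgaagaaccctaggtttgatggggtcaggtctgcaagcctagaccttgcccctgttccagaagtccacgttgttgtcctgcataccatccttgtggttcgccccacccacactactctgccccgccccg
Tcl1b1: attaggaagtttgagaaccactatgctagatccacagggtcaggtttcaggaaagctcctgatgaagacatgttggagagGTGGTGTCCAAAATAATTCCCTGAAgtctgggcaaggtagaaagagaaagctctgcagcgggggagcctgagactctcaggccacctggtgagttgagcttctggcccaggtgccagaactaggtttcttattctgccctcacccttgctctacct
Tcl1b3: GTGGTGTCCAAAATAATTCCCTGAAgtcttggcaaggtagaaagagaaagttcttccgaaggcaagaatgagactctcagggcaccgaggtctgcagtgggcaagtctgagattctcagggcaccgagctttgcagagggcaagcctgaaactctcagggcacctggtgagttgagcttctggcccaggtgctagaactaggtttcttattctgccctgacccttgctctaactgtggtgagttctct

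Counted from the RefSeq start and not from the end of the printed bases, the run in capitals began 170 bases upstream of Tcl1b1, 195 of Tcl1b2, 250 of Tcl1b3, 182 of Tcl1b4 and 156 of Tcl1b5. It was not found in the window of Tcl1, and 0 other genes of 27025 with a promoter in the RefSeq table held it. The 250 bases upstream were aligned whole, with bases in annotated exons included, and the window of Tcl1b4 begins in such an exon. Over the part that aligned (152 to 250 bases), identity was 63.7% to 99.2% among the 10 pairs of Tcl1b genes, with Tcl1b2 and Tcl1b4 the nearest pair. It was 53.9% to 57.0% between Tcl1 and a Tcl1b gene. The transcripts of the GENCODE annotation of GRCm38 showed the same division, with 83.3% to 92.6% identity among Tcl1b genes and 53.7% to 55.0% between Tcl1 and a Tcl1b gene. In windows from 250 bases before to 50 bases after the start, Tcl1 had 11 CpG dinucleotides and the Tcl1b genes 2 to 6, beside a median of 7 over 32851 promoters. Short motifs were searched on both strands of these windows: the octamer ATGCAAAT, found in 1.74% of all promoters, the E-box CACGTG (7.15%), TAATTA or TAATTG (12.4%) and TATAAA (13.6%). None of the motifs contains another, and 0 of the 6 windows held any of them, which says only that these letters are not in these windows.

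Because the Tcl1b genes are alike, reads can be shared between them. Of the 50-base stretches of its transcripts, Tcl1b3 shared 34.1% with another member, Tcl1b2 24.0%, Tcl1b5 20.8%, Tcl1b1 12.4% and Tcl1b4 2.88%, while Tcl1 shared 0%. At 100 bases the shares were at most 9.09% (Tcl1b3). The sources used here do not state the read length. How the signal was split among the Tcl1b genes is therefore uncertain, and their sum is given beside the single genes.

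Levels are FPKM, reads scaled to the length of the gene and the size of the library, so they can be set side by side between genes. The deposited coverage at 1 FPKM, which tracks depth, lay between 0.373 and 2.01, and 6573 to 12061 genes reached 1 FPKM. The number of reads is unknown. Control embryo 1 had both the highest coverage at 1 FPKM (2.01) and the fewest genes reaching 1 FPKM (6573). Control embryo 2 had 1.22 and 10291, and the knockout embryo libraries had 8535 to 9877 such genes. The part of this in the embryo comparisons was not tested. The pair of control embryos had the lowest correlation across genes (r = 0.774; genes are not replicates), and pairs within the other groups had 0.888 to 0.970. Dcaf11 ranged from 2.82 to 14.3 FPKM in control embryos, from 0.184 to 3.99 in KO embryos and from 0.422 to 6.02 in KO arrest libraries, so it did not separate these groups, and the sources used here do not say which part of the gene was deleted. In the ESC, Dcaf11 was at 6.48 and 4.52 FPKM in controls and at 1.69 and 1.83 after knockdown (limma, adjusted p = 0.0521). Oocyte markers summed to 5362 to 30579 FPKM in the 8 embryo libraries and to 32.0 to 72.5 in the 4 ESC libraries, and ESC markers to 4.57 to 144 and 1867 to 2211. In bulk samples fewer cells of a type and less RNA per cell cannot be told apart.

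Tcl1 was among the most abundant transcripts of wild-type embryos, and the Tcl1b genes together exceeded it there. In control embryos 1 and 2 Tcl1 stood at 395 and 3831 FPKM, rank 90 and rank 9 of all genes. Tcl1b1, the leading Tcl1b gene, stood at 513 and 1916 FPKM (rank 63 and 20), Tcl1b3 at 261 and 1133, Tcl1b4 at 190 and 599, Tcl1b2 at 140 and 826 and Tcl1b5 at 87.7 and 195. All 6 genes were higher in control embryo 2 than in control embryo 1, and so was the median of 11795 genes (log2 difference 0.63). The gap was widest for Tcl1 (9.70-fold) and narrowest for Tcl1b5 (2.23-fold). Of all genes tested 5.20% had a gap at least as high as that of Tcl1. For the Tcl1b genes this share was 11.2% (Tcl1b2) to 37.2% (Tcl1b5).

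The group means of the family sum were in the order control embryo, KO embryo, KO arrest, control ESC, KD ESC, with no overlap between neighbouring groups. The sum was 1586 and 8500 FPKM in control embryos, 892, 731 and 1014 in KO embryos and 136, 95.0 and 241 in KO arrest libraries. It was 71.1 and 67.5 FPKM in control ESC and 42.3 and 44.9 in KD ESC. For Tcl1 alone control and KO embryos overlapped, and KO arrest libraries (73.6, 60.4 and 189 FPKM) overlapped with control ESC (70.6 and 67.5). For the Tcl1b sum the gap lay elsewhere: 34.6 to 62.5 FPKM in KO arrest libraries but 0.490 and 0 in control ESC and 0 and 0.825 in KD ESC.

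**Figure D1:**
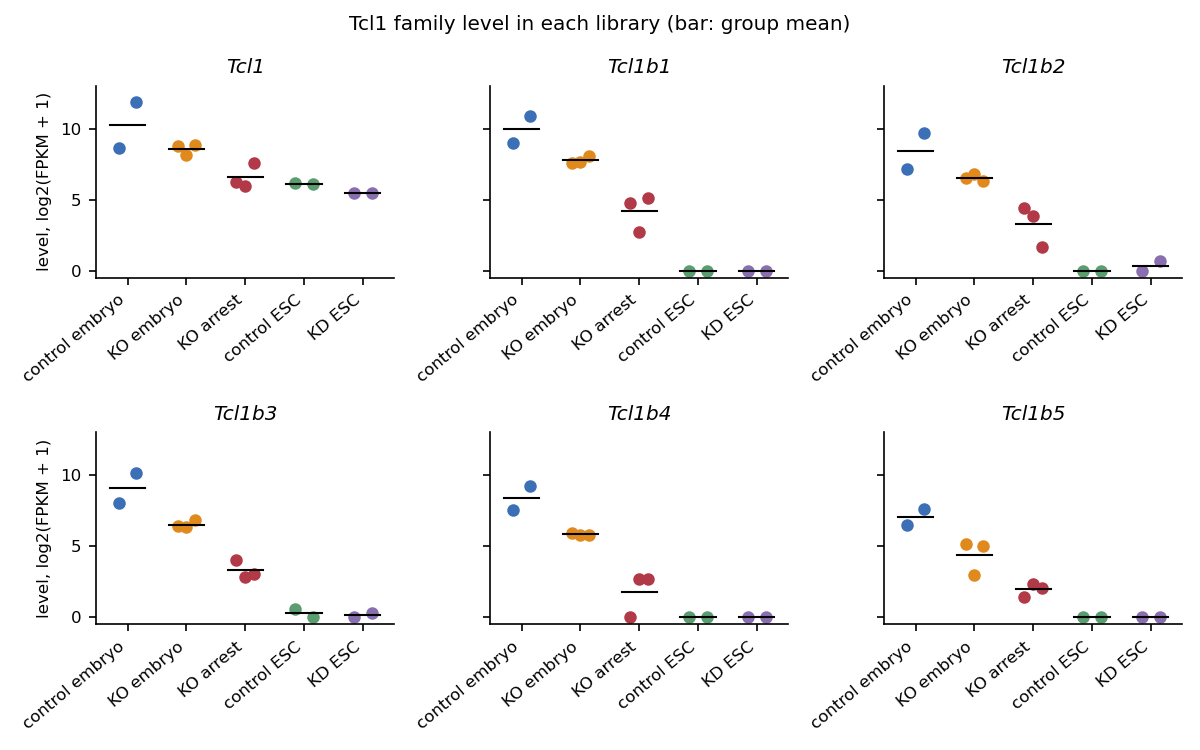
Level of each family gene as log2(FPKM + 1) in each of the 12 libraries, by group, with the group mean as a bar. Tcl1 remains between 42.3 and 70.6 FPKM in the ESC groups, where the 5 Tcl1b genes are at or below 0.614 FPKM, and the 5 Tcl1b genes step down from control embryo to KO embryo to KO arrest.

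How embryos lacking Dcaf11 differ from wild type is the question of the first comparison. Tcl1 was at 432, 282 and 467 FPKM in KO embryos against 395 and 3831 in controls. Control embryo 1 lay within the range of the KO embryos and control embryo 2 far above it. Fold changes are given on the scale of log2(FPKM + 1), and for Tcl1 the fitted value was −1.68 ± 0.81 (SE; limma, adjusted p = 0.252), so no change was called. Without control embryo 1 it was −3.31 (adjusted p = 0.0215) and without control embryo 2 it was −0.04, so this value rests on which control is used.

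The Tcl1b genes were lower in every KO embryo than in both controls. Tcl1b3 was at 83.3, 78.4 and 113 FPKM in KO embryos against 261 and 1133 in controls, and it fell by 2.57 ± 0.61 on the log2 scale (limma, adjusted p = 0.0375). Tcl1b1 was at 190, 200 and 273 FPKM against 513 and 1916 (−2.18 ± 0.73, adjusted p = 0.103), and Tcl1b4 at 61.1, 54.0 and 53.5 against 190 and 599 (−2.57 ± 0.80, adjusted p = 0.0852). Neither gene passed the test, although the groups did not overlap. Tcl1b5 was at 33.7, 6.66 and 30.8 FPKM against 87.7 and 195 (−2.69 ± 0.71, adjusted p = 0.0510), and Tcl1b2 at 92.2, 110 and 76.5 against 140 and 826 (−1.88 ± 0.85, adjusted p = 0.222). Thus 1 of 6 members was called lower, beside 1.50% of the 11795 genes tested (6.36% were called in either direction), and 5 of 6 did not overlap on the lower side, beside 12.1% of genes. The median log2 fold change was −2.37 over the 6 members and 0.31 over all genes tested. The call of Tcl1b3 was lost with a pseudocount of 0.1 (adjusted p = 0.0528), with no filter on low values (0.0986), with the KO arrest libraries left out of the fit (0.0601), with the replicate number as a block (0.102), without control embryo 2 (0.0859), without any single KO embryo (0.0922 to 0.116) and without KO arrest 2 (0.0597) or 3 (0.0580). With median-of-ratios scaling 4 members were called, and with quantile normalization 3.

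As a mean over libraries, the family sum was 879 ± 142 FPKM (SD, n = 3) in KO embryos and 5043 ± 4889 (SD, n = 2) in control embryos, 5.74-fold lower. Against control embryo 2 alone the fold was 9.67, and against control embryo 1 alone it was 1.80. For the Tcl1b genes together the means were 2930 ± 2459 FPKM in controls and 486 ± 53.4 in KO embryos, a 6.03-fold difference (9.62 against control embryo 2, 2.45 against control embryo 1). The exact two-sided permutation test gave p = 0.2 for both sums, the smallest that 3 against 2 libraries allow (adjusted over 20 such tests, 0.4). The direction therefore held against either control, while the size of the fold did not.

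KO arrest libraries had the lowest family levels of the embryos. Tcl1 was at 73.6, 60.4 and 189 FPKM, below both controls, and fell by 3.69 ± 0.81 on the log2 scale (limma, adjusted p = 0.00865). Tcl1b1 was at 26.0, 5.45 and 34.2 FPKM and fell by 5.76 ± 0.73 (adjusted p = 0.000594). Tcl1b3, at 15.0, 6.04 and 7.22 FPKM, fell by 5.80 ± 0.61 (adjusted p = 0.000294). These 3 genes were all below every control and every KO embryo library. Tcl1b2 was at 19.7, 13.5 and 2.19 FPKM (fell by 5.11 ± 0.85, adjusted p = 0.00229) and Tcl1b5 at 1.71, 4.04 and 3.19 (fell by 5.10 ± 0.71, adjusted p = 0.000953). Tcl1b4 was listed at 0 in KO arrest 1 and at 5.51 and 5.43 FPKM in the others, and it had the largest fitted change of the family, −6.61 ± 0.80 (adjusted p = 0.000495).

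All 6 of 6 members were called lower in KO arrest against control embryos, beside 8.87% of genes tested (25.2% in either direction), and 6 of 6 did not overlap, beside 17.5%. The median log2 fold change was −5.44 over the members and 0.45 over all genes. The family sum was 157 ± 75.5 FPKM (SD, n = 3), 32.0-fold below the controls, with 54.0-fold against control embryo 2 alone and 10.1-fold against control embryo 1 alone. The Tcl1b sum of 49.8 ± 14.1 FPKM (SD, n = 3) was 58.9-fold lower and Tcl1 itself 19.6-fold lower (3.67-fold against control embryo 1 alone). The exact permutation p was 0.2 for each, the smallest this design allows. All 6 calls held under the 9 other settings and the 8 fits with a library left out, with adjusted p for Tcl1 of 0.0421 or less.

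KO arrest and KO embryo libraries share the knockout genotype and differ in the word arrest. Here 5 of 6 members were called lower, beside 3.65% of genes tested (8.58% in either direction), and 6 of 6 did not overlap, beside 17.7%. The members called were the Tcl1b genes: Tcl1b4 fell by 4.04 ± 0.72 (limma, adjusted p = 0.00979), Tcl1b1 fell by 3.58 ± 0.65 (0.0111), Tcl1b2 fell by 3.23 ± 0.76 (0.0275), Tcl1b3 fell by 3.23 ± 0.55 (0.00821) and Tcl1b5 fell by 2.40 ± 0.64 (0.0434). Tcl1 was lower in each of the 3 arrest libraries than in each KO embryo, 3.66-fold on the means, with a log2 fold change of −2.01 ± 0.72 (adjusted p = 0.111). The Tcl1b sum was 9.76-fold lower and the family sum 5.58-fold lower, each with an exact permutation p of 0.1, the smallest for 3 against 3. The members' median was −3.23, beside 0.07 over all genes. With a library left out 3 to 6 members were called: the calls of Tcl1b2 and Tcl1b5 were each lost in 5 of these 8 fits, and that of Tcl1 was gained when either control embryo was left out. Tcl1b1, Tcl1b2 and Tcl1b5 were not called with no filter on low values, nor Tcl1b5 with a pseudocount of 0.1 or the replicate block.

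**Figure D2:**
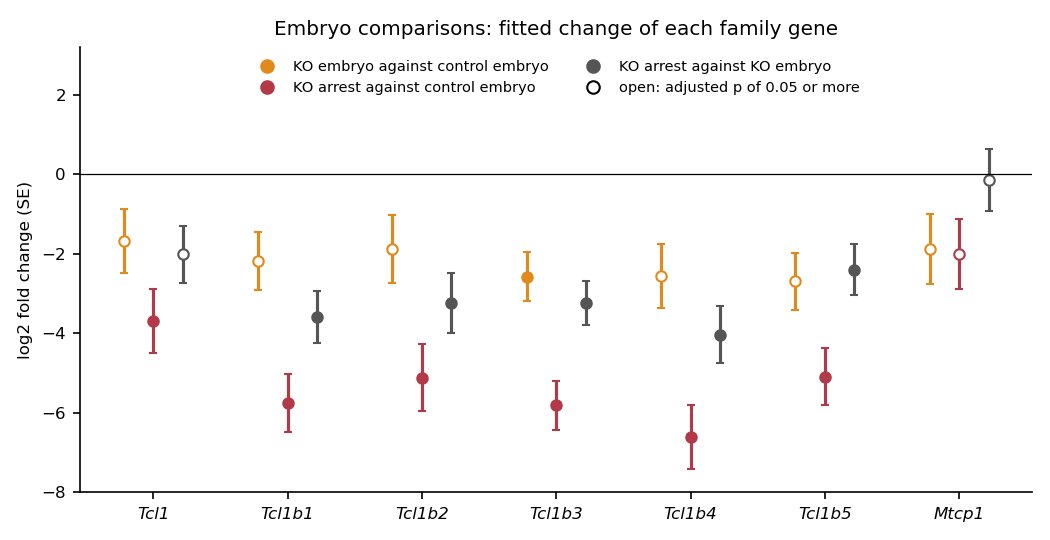
Fitted log2 fold change with its SE for the 6 family genes and Mtcp1 in the 3 embryo comparisons; filled points have an adjusted p under 0.05. The 6 values of KO arrest against control embryo lie between −6.61 and −3.69, and those of KO embryo against control embryo between −2.69 and −1.68; the comparisons share libraries.

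The comparisons with KO arrest have to be read with other values that moved. Markers of fibroblasts summed to 16.7 and 61.6 FPKM in control embryos, 54.3 to 88.3 in KO embryos and 0.0513 to 2.90 in KO arrest libraries. In KO arrest libraries 4 of 6 such markers were called lower than in controls and 5 of 6 lower than in KO embryos, beside 8.87% and 3.65% of genes. The measure of depth, coverage at 1 FPKM, was 0.373 to 0.659 in KO arrest libraries and 0.585 to 2.01 in the other embryos. The part of either in the Tcl1 result was not tested. Cumulus markers summed to at most 17.1 FPKM and lymphocyte markers to at most 21.1 in any embryo library. Of 8 oocyte markers 3 were called lower and 1 higher in KO arrest libraries than in controls, beside 8.87% and 16.4% of genes. Their median log2 fold change was −1.41. The marker called higher was Dppa3, which at 4949 and 12398 FPKM in controls and 21963 to 30499 in KO arrest libraries made up nearly all of the summed marker level.

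Mtcp1, the other gene of the family, encodes a protein of the same fold and lies on the X chromosome (mm9 72650186 to 72661882, minus strand). It was at 30.6 and 31.9 FPKM in control embryos, 12.7, 9.75 and 3.66 in KO embryos and 1.24, 21.2 and 9.28 in KO arrest libraries. Both knockout groups lay below the controls and overlapped each other. Its log2 fold change was −1.87 ± 0.88 (limma, adjusted p = 0.238) for KO embryos and −2.01 ± 0.88 (adjusted p = 0.120) for KO arrest libraries against controls, neither of them called, and −0.14 ± 0.79 between the knockout groups (adjusted p = 0.931). In the ESC it was at 3.17 and 5.61 FPKM in controls and 3.46 and 2.35 after knockdown (−0.44 ± 0.30, adjusted p = 0.382).

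The share of the family signal that came from Tcl1 differed between groups. Tcl1 made up 24.9% and 45.1% of the summed FPKM in control embryos and 48.4%, 38.6% and 46.1% in KO embryos, which overlapped. It made up 54.1%, 63.6% and 78.4% in KO arrest libraries, above all other embryos, and 98.2% to 100% in the ESC libraries. The exact permutation p was 0.4 for KO embryos and 0.2 for KO arrest libraries against controls, and 0.1 between the knockout groups. Those of 0.2 and 0.1 are the smallest that these group sizes allow. Adjusted over 20 such permutation tests, the values were 0.47, 0.4 and 0.4. Within the Tcl1b sum Tcl1b1 led in 7 of 8 embryo libraries, with 41.0% to 65.5% of it, and in KO arrest 2, where it held 15.8%, Tcl1b2 led with 39.1%. Tcl1b5 held the smallest part in every control and KO embryo (1.48% to 7.36%).

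**Figure D3:**
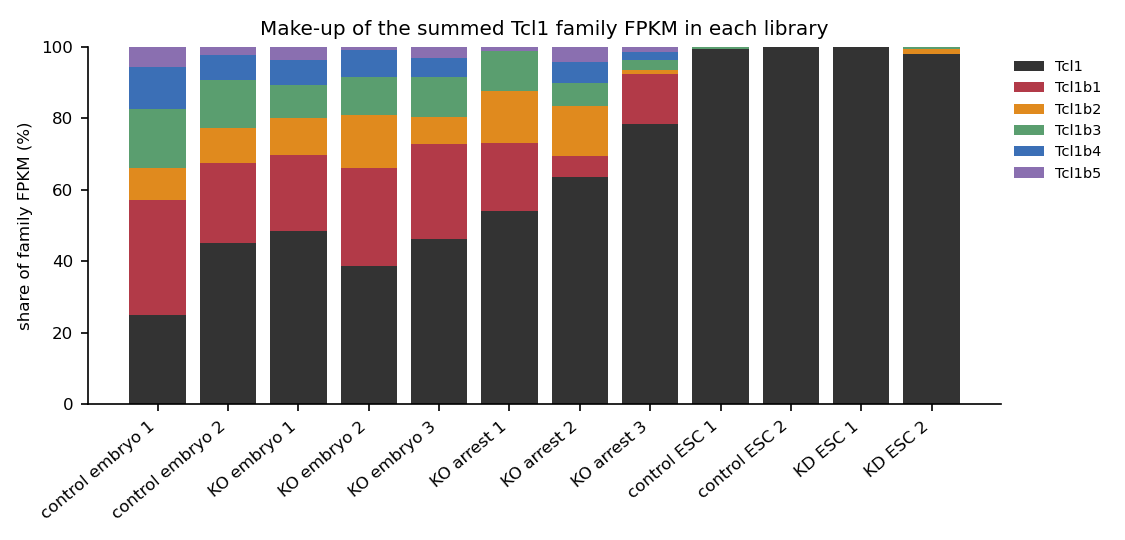
Share of the summed Tcl1 family FPKM held by each gene in each library, in percent. Tcl1 holds 24.9% to 48.4% in control and KO embryos, 54.1% to 78.4% in KO arrest libraries and 98.2% to 100% in ESC libraries.

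In embryonic stem cells the question was whether Dcaf11 knockdown is accompanied by a change of the family where only Tcl1 is present at an appreciable level. Tcl1 was at 70.6 and 67.5 FPKM in control ESC and at 42.3 and 44.0 in KD ESC. Both KD libraries were below both controls, 1.60-fold on the means (69.0 ± 2.20 against 43.2 ± 1.24 FPKM, SD, n = 2 each). The log2 fold change was −0.67 ± 0.08 (limma, adjusted p = 0.0348), and the exact permutation p was 0.333, the smallest that 2 against 2 allow. Tcl1 was the 1 member with enough signal to be tested, and the background was 3.64% of 12264 genes called lower (6.23% in either direction) and 37.1% not overlapping on the lower side. The call did not hold in the fit of all 12 libraries (adjusted p = 1) or with the replicate block (0.0955), nor without control ESC 1 (0.205), control ESC 2 (0.187) or KD ESC 1 (0.0615), although the fold change stayed between −0.70 and −0.63 with a library left out. The Tcl1b genes were listed at 0 in both groups, except Tcl1b3 at 0.490 FPKM in control ESC 1 and 0.211 in KD ESC 2 and Tcl1b2 at 0.614 in KD ESC 2.

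Control ESC and control embryos differ in strain as well as in cell type, and the parts of these cannot be told apart. All 6 members were lower in control ESC, beside 12.6% of the 14447 genes tested (53.4% in either direction), and 6 of 6 did not overlap, beside 19.2%. The Tcl1b genes passed the filter on low values only through embryo libraries, so they could be called only as lower. Their calls and lack of overlap are therefore no evidence when set beside these shares, and only Tcl1 could have gone either way. Tcl1 fell by 4.14 ± 0.87 (limma, adjusted p = 0.00286), 30.6-fold on the means and 5.72-fold against control embryo 1 alone. With these 2 groups alone in the fit the adjusted p of Tcl1 was 0.0623. For the Tcl1b genes, listed at or near 0 in the ESC, no fold is given; their fitted changes, from −9.96 (Tcl1b1) to −7.04 (Tcl1b5), depend on the pseudocount.

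The knockout difference in embryos was also set against the knockdown difference in ESC, where only Tcl1 had enough signal to show a response. None of the 6 members was called (limma, all 12 libraries), beside 2.69% of genes called in either direction and 0.623% called lower. An unadjusted p under 0.05 was found for 3 members, beside 2650 of 14447 genes: Tcl1b5 (0.0195), Tcl1b3 (0.0205) and Tcl1b4 (0.04997). The difference for Tcl1 was −1.01 ± 1.18 (adjusted p = 0.722), and it was 0.63 without control embryo 2. For the Tcl1b genes the ESC side of this difference is at or near 0 FPKM, so it cannot test for a different response. For Tcl1b1 (−2.18), Tcl1b4 (−2.57) and Tcl1b5 (−2.69) it gave the same log2 fold change as KO embryos against controls. Tcl1b3 was called with median-of-ratios scaling (adjusted p = 0.0464) and without control embryo 1 (0.0253).

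No gene beside the cluster was called lower in an embryo comparison, but few were tested. Over all genes 1.50% were called lower in KO embryos, 8.87% in KO arrest libraries against controls and 3.65% between the knockout groups. With so few neighbours a count of 0 says little. Of 13 other genes within 500 kb, 7 had enough signal in embryos. In KO embryos against controls 0 of them were called (limma), beside 6.36% of genes. Their median log2 fold change was −0.32, beside −2.37 for the family and 0.31 for all genes. Between the knockout groups 0 were called, beside 8.58% of genes, and 0 had an unadjusted p under 0.05, beside 3101 of 11795 genes. The unadjusted p of Atg2b (0.0102) and Gskip (0.0107) was under 0.05 in KO embryos, as it was for 2659 of 11795 genes. In KO arrest against control embryos 2 of 7 were called, both higher, beside 16.4% of genes called higher: Atg2b, which encodes a lipid transfer protein of autophagy (2.03 ± 0.61, adjusted p = 0.0341), and Gskip, which binds the kinase Gsk3 (1.46 ± 0.45, adjusted p = 0.0356). Both calls were lost with TPM, median-of-ratios and quantile scaling and when any of 6 of the 8 embryo libraries was left out. Atg2b rose from 0.186 and 0.949 FPKM to 7.48, 4.51 and 4.17, and Gskip from 10.8 and 18.0 to 51.6, 37.8 and 33.3. Dicer1, the enzyme that cuts microRNA precursors, was at 30.9 and 36.6 FPKM in controls, 25.6, 20.8 and 25.8 in KO embryos and 19.5, 12.9 and 10.4 in KO arrest libraries (−1.22 ± 0.46 in the last, adjusted p = 0.0746). In the ESC 0 of 9 neighbours tested were called after knockdown, beside 6.23% of genes. Atg2b alone had an unadjusted p under 0.05 (limma, 0.0281), as 3706 of 12264 genes did.

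**Figure D4:**
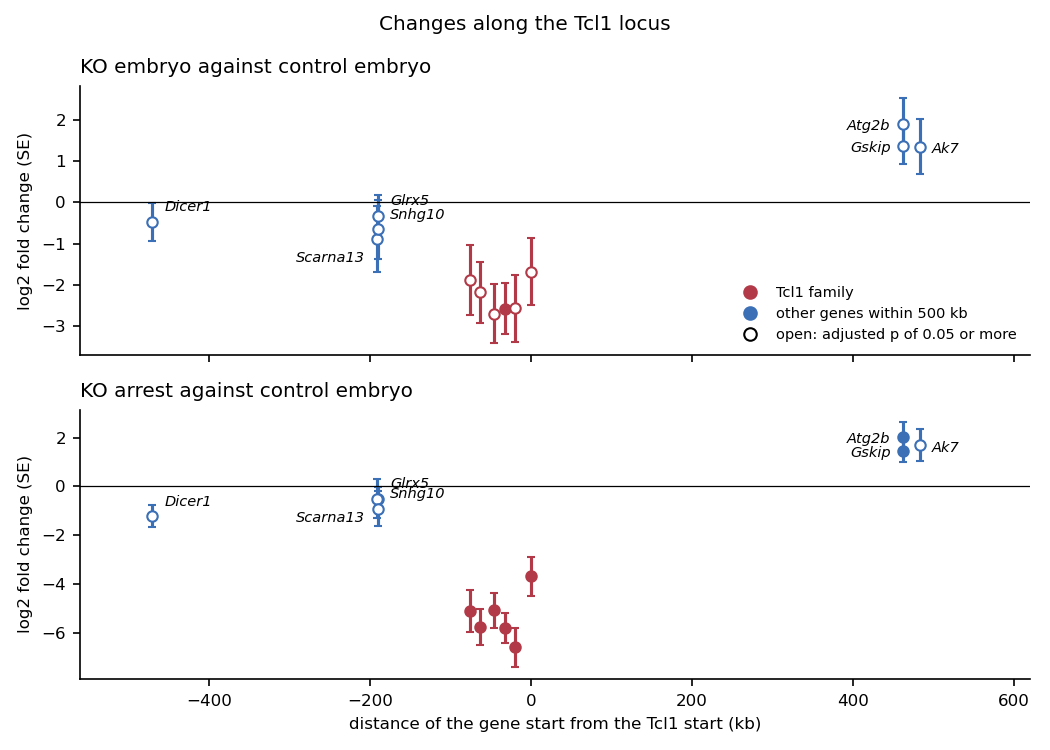
Fitted log2 fold change with its SE along the Tcl1 locus, against the distance of each gene start from that of Tcl1 in kb; filled points have an adjusted p under 0.05. The family genes lie between −2.69 and −1.68 in KO embryos and between −6.61 and −3.69 in KO arrest libraries, while the 7 tested neighbours lie between −1.22 and 2.03.

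Akt is the kinase to which Tcl1 proteins bind, so the genes of the Akt pathway were set beside the family. Of 36 listed, 32 were tested in embryos. In KO embryos 2 rose and 0 fell, beside 4.86% of genes called higher and 1.50% lower: Rheb, the GTPase that activates mTOR (39.1 and 73.1 FPKM in controls, 166, 252 and 303 in KO embryos; 2.10 ± 0.44, limma, adjusted p = 0.0233), and Cdc37, a chaperone partner for kinases (0.678 and 2.46 against 11.4, 7.38 and 16.3 FPKM; 2.34 ± 0.57, adjusted p = 0.0394). Neither was called with median-of-ratios scaling or without any single KO embryo. In KO arrest against control embryos 6 of 32 rose and 4 fell, beside 16.4% of genes called higher and 8.87% lower, with a list median of −0.30. Among them Pik3cd, a catalytic subunit of phosphoinositide 3-kinase, fell by 3.55 ± 0.65 (limma, adjusted p = 0.00354). The Akt chaperone Hsp90aa1 rose by 2.87 ± 0.35 (adjusted p = 0.000520) and Cdc37 rose by 3.24 ± 0.57 (adjusted p = 0.00298).

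Between the knockout groups 2 genes of the pathway rose and 4 fell, beside 4.93% and 3.65% of genes. Cdkn1a, which encodes the cell cycle inhibitor p21, rose by 4.31 ± 0.60 (limma, adjusted p = 0.00419), and Hsp90aa1 rose by 1.65 ± 0.32 (adjusted p = 0.0137, lost in 4 of 8 fits with a library left out). In the ESC 1 of 36 was called after knockdown, Cdkn1b, which encodes the inhibitor p27 (37.2 and 35.8 against 23.6 and 24.0 FPKM; −0.60 ± 0.09, adjusted p = 0.0424), and that call was lost whichever library was left out.

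The Tcl1 family changed in the direction of many oocyte transcripts. Of 38 maternal and oocyte genes tested, 0 rose and 9 fell in KO embryos, 2 rose and 21 fell in KO arrest libraries against controls, and 0 rose and 11 fell between the knockout groups, with list medians of −1.40, −3.03 and −1.36 beside −2.37, −5.44 and −3.23 for the Tcl1 family. Over all genes tested 4.86%, 16.4% and 4.93% were called higher in these comparisons and 1.50%, 8.87% and 3.65% lower. The list was drawn up with earlier results on these libraries known, so it is no independent evidence of a direction. Zbed3, a gene of the subcortical maternal complex, was at 1870 and 3896 FPKM in controls, 626, 442 and 448 in KO embryos and 103, 75.0 and 70.3 in KO arrest libraries, and fell by 2.43 ± 0.40 in KO embryos (limma, adjusted p = 0.0108) and fell by 5.03 ± 0.40 in KO arrest libraries (adjusted p = 0.000141). Oas1d, an oocyte member of the oligoadenylate synthetase family, fell by 2.43 ± 0.49 in KO embryos (adjusted p = 0.0213), a call lost without any single KO embryo. Omt2b and Omt2a, near-identical oocyte transcripts that can share reads, had log2 fold changes of −1.39 ± 0.33 and −1.57 ± 0.38 in KO embryos (adjusted p = 0.0359 and 0.0382), each lost in 7 of 8 fits with a library left out, and of −5.50 ± 0.33 and −5.27 ± 0.38 in KO arrest libraries. Oog3, oogenesin, fell by 5.35 ± 0.51 in KO arrest libraries (adjusted p = 0.000196). The number of these genes called lower in KO embryos depended on the setting, from 0 with the replicate number as a block and 2 with no filter to 18 with median-of-ratios scaling. Not all oocyte genes fell: the 2 that rose in KO arrest libraries were Dppa3 (1.73 ± 0.43, adjusted p = 0.0161), a maternal factor that guards DNA methylation, and Khdc3 (3.08 ± 0.77, adjusted p = 0.0157), also of the subcortical maternal complex. These 2 were named after their values were seen.

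Regulators of the growing oocyte, mostly transcription factors, were also counted. Of 6 tested, 1 fell in KO embryos, 4 in KO arrest libraries and 1 between the knockout groups, and 0 rose. Over all genes tested 1.50%, 8.87% and 3.65% were called lower in these comparisons. Tbpl2, the oocyte form of the TATA-binding protein, was at 2.08 and 2.56 FPKM in controls and listed at 0 in all 6 knockout libraries (limma, adjusted p = 0.0373 for KO embryos, a call lost without any single KO embryo). It passed the filter on low values only through the controls, so it could be called only as lower. Its calls, which are among those counted here, are therefore no evidence of a fall. Lhx8 was at 5.52 and 11.4 FPKM in controls, 3.88, 6.98 and 5.86 in KO embryos and 0, 1.21 and 0 in KO arrest libraries (−2.79 ± 0.66 against controls, limma, adjusted p = 0.0123, and −2.31 ± 0.59 against KO embryos, adjusted p = 0.0382, a call lost with no filter, with the replicate block and in 6 of 8 fits with a library left out). Nobox (−2.79 ± 0.77, adjusted p = 0.0239) and the growth factor gene Gdf9 (−2.32 ± 0.69, adjusted p = 0.0318) were the others called lower in KO arrest libraries, each lost in 3 of 8 fits with a library left out. In the ESC 1 of 2 tested was called, Sohlh2, at 8.02 and 9.24 FPKM in controls and 29.4 and 28.7 after knockdown (1.64 ± 0.12, adjusted p = 0.0222), a call lost in the fit of all 12 libraries and without either control ESC library.

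Pluripotency genes, with which Tcl1 is expressed in ESC, did not fall as a list in embryos, as the family did. Of 17 tested, 0 were called in KO embryos (limma), beside 6.36% of genes. An unadjusted p under 0.05 was found for 3, beside 2659 of 11795 genes. In KO arrest libraries against controls 5 rose and 2 fell, beside 16.4% of genes called higher and 8.87% lower. Between the knockout groups 2 rose, beside 4.93% of genes called higher. The list medians in these comparisons were 0.29, 1.08 and 0.88. Tdgf1, a co-receptor of Nodal, was listed at 0 in both controls and was at 23.4, 97.0 and 96.7 FPKM in KO arrest libraries (5.95 ± 0.80, limma, adjusted p = 0.000805). With both controls at 0 it could be called only as higher against them. This call, which is among the 5 counted, is therefore no evidence of a rise. Nr5a2 rose by 2.49 ± 0.58 (adjusted p = 0.0111) and Dppa4 by 2.10 ± 0.57 (adjusted p = 0.0227), and Sox2 fell by 2.54 ± 0.67 (adjusted p = 0.0191). Nanog rose by 2.75 ± 0.56 from KO embryos to KO arrest (adjusted p = 0.0170), to 4.61 to 10.9 FPKM. The calls of Dppa4, Sox2 and Nanog were each lost in 3 of 8 fits with a library left out. With TPM, median-of-ratios or quantile scaling 2 rather than 5 genes rose in KO arrest against controls.

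In the ESC 3 of the 17 pluripotency genes fell with Tcl1 after knockdown and 2 rose, beside 3.64% of genes called lower and 2.59% higher. Klf4 was at 202 and 201 FPKM in controls and 107 and 117 in KD ESC (−0.84 ± 0.08, limma, adjusted p = 0.0285). Utf1 was at 112 and 107 FPKM against 58.3 and 52.1 (−0.98 ± 0.09, adjusted p = 0.0285), and Pou5f1, which encodes Oct4, at 356 and 353 against 256 and 246 (−0.50 ± 0.06, adjusted p = 0.0352). Prdm14 rose, from 26.6 and 27.7 to 50.1 and 45.2 FPKM (0.79 ± 0.10, adjusted p = 0.0362). The list median was −0.08, close to the −0.09 of all genes. Like the call of Tcl1, those of these 4 genes were lost in the fit of all 12 libraries and when either control ESC library was left out.

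Genes with the pattern nearest to the family were ranked by the mean absolute difference of log2(FPKM + 1) over the 12 libraries, after subtraction of each gene's mean. Nearest to Tcl1 among 14446 genes were E330012B07Rik (0.36), Lrrc17 (0.42), Oas1c (0.51), Pcdh15 (0.51) and Tac2 (0.53). Lrrc17, which encodes a secreted leucine-rich repeat protein, was at 17.4 and 85.2 FPKM in control embryos, 15.1, 7.67 and 25.1 in KO embryos, 3.34, 1.67 and 3.23 in KO arrest libraries and at most 1.30 in ESC. Like Tcl1 it was far higher in control embryo 2 than in control embryo 1, but it was nearly absent from ESC. No Tcl1b gene was among the nearest: the best placed, Tcl1b5, ranked 526 (0.98) and Tcl1b1 ranked 9098 (2.09). The distance includes the span between embryos and ESC, which is wider for a gene near 0 in ESC the higher it is in embryos. These ranks therefore rest in part on level and do not show that the genes are regulated differently.

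Nearest to the Tcl1b sum among 14442 genes were C86187 (0.44), Oog3 (0.46), Obox5 (0.54), Trim61 (0.63) and Btg4 (0.64), of which all but Trim61 stand in the list of oocyte genes. C86187 was at 943 and 2697 FPKM in control embryos, 312, 268 and 215 in KO embryos and 65.2, 16.2 and 15.5 in KO arrest libraries, and at or near 0 in ESC. Obox5, an oocyte homeobox gene, was at 371 and 1254, then at 252, 239 and 247, then at 77.9, 26.5 and 45.5 FPKM in the same 3 groups. Btg4, an adaptor of the deadenylase that clears maternal mRNA, was at 527 and 1698, then at 210, 194 and 242, then at 141, 48.7 and 33.2 FPKM. All of these were higher in control embryo 2 than in control embryo 1, as the Tcl1b genes and the median of all genes tested were. Tcl1 ranked 321 in its distance to the Tcl1b sum (2.42).

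**Figure D5:**
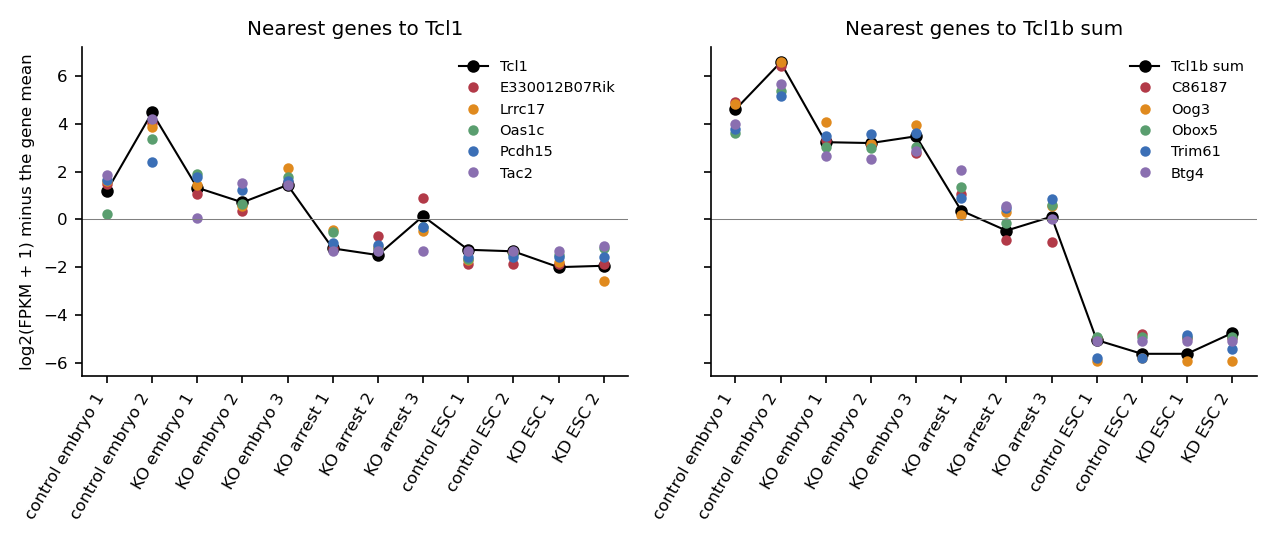
log2(FPKM + 1) minus the gene's mean over the 12 libraries, for Tcl1 (left) and the Tcl1b sum (right) as black lines and the 5 nearest genes of each as coloured points. The genes nearest to Tcl1 lie at a mean distance of 0.36 to 0.53 and those nearest to the Tcl1b sum at 0.44 to 0.64.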

How the data were processed

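Per the labels, 12 Smart-seq2 libraries were made, and the authors deposited for each a gene table with FPKM, TPM and coverage values, per the file headers. STAR (listed as 0.6.0), StringTie, DESeq2 and the build mm9 are named per the submitters' processing notes; tool settings, annotation, strand use and read length are not given there. The authors' TPM values and the deposited coverage, a signal per base, served as an alternative scaling and as a measure of depth; read counts were not used.

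FPKM values were summed per symbol, and rows without a symbol (227 to 339 per library, 0.549% to 1.19% of FPKM) were left out. Genes reaching 1 FPKM in 2 or more libraries were fitted with limma 3.58.1 (R 4.3.3, variance trend) on log2(FPKM + 1), over the 8 embryo libraries (5 residual degrees of freedom), the 4 ESC libraries (2) or all 12 (7), with calls made at 0.05 after Benjamini-Hochberg adjustment over all genes tested. The pseudocount understates the change of low genes. Sums and shares were compared by exact permutation tests (scipy 1.17.1). Scripts used Python 3.11.15, numpy 2.4.6, pandas 2.3.3, biopython 1.88 and matplotlib 3.10.9, and the fits were tested on simulated data.

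The members, gene lists and tests were chosen with earlier results of these data known. Genes named are the members, Mtcp1, Dcaf11, called members of the Akt, pluripotency, oocyte and oocyte factor lists (the 4 of smallest p per list and comparison), genes within 500 kb, and the 5 nearest patterns of Tcl1 and of the Tcl1b sum; some genes that this rule would name are not reported here. The 3 embryo comparisons share libraries. Sequences came from RefSeq (GRCm38.p6), another build than that of the tables, matched by symbol; all 6 members matched. The upstream bases of Tcl1b4 are not printed. Alternatives were another pseudocount and filter, TPM, median-of-ratios and quantile scaling, other sets of libraries, a replicate block, and leaving out each library in turn.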

Additional observations from a re-analysis of the deposited data

How the results depend on the processing

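Every member kept its sign in each embryo comparison under all alternatives, and the 6 calls in KO arrest against control embryo and in control ESC against control embryo held, except that of Tcl1 in the latter with only the 2 groups compared. In KO embryo against control embryo (1 member and 750 genes called) 0 members were called with a pseudocount of 0.1 and with no filter (269 genes), 2 with a minimum of 5 FPKM and with all 12 libraries (1709 genes), 3 with quantile normalization and 4 with median-of-ratios scaling, and 228 genes with only the 2 groups compared. In KO arrest against KO embryo (5 members, 1012 genes) 2 members and 456 genes were called with no filter, 4 members with a pseudocount of 0.1 or the replicate block and 6 with quantile normalization or only the 2 groups, 2030 genes with only the 2 groups and 2081 with all 12 libraries. In KD ESC against control ESC (1 member, 764 genes) 313 genes were called with no filter, 431 with TPM, and 93 genes and 0 members with all 12 libraries. The difference of the effects (0 members, 388 genes) had 257 genes with a pseudocount of 0.1 and 1 member with median-of-ratios scaling. The deviations of same-numbered libraries from their group means had correlations from −0.101 to 0.025. With so few libraries per group these values are not independent, so they cannot exclude a shared preparation. With the replicate number as a block the calls were 76 genes and 0 members in KO embryo against control embryo, 1965 in KO arrest against control embryo, 550 in KO arrest against KO embryo, 26 and 0 members in KD ESC, and 127 in the difference of effects. With a library left out, genes called ranged from 87 to 1817, 1983 to 3636, 285 to 2023, 13 to 686, 5682 to 8651 and 39 to 2020 in KO embryo and KO arrest against controls, KO arrest against KO embryo, KD ESC, control ESC against embryo and the difference of effects, and members called from 0 to 2, 6 to 6, 3 to 6, 0 to 1, 6 to 6 and 0 to 1.

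The difference in mean log2 of the family sum, Tcl1 and the Tcl1b sum with a library left out ranged from −3.28 to −0.86, −3.31 to −0.04 and −3.27 to −1.30 in KO embryo against control embryo, −5.85 to −3.43, −5.33 to −2.05 and −6.56 to −4.59 in KO arrest against control embryo, and −2.93 to −2.26, −2.51 to −1.70 and −3.48 to −3.06 in KO arrest against KO embryo. In KD ESC against control ESC these ranges were −0.70 to −0.62, −0.70 to −0.63 and −0.29 to 0.58 (−0.14 without control ESC 2), and in control ESC against control embryo −6.92 to −4.50, −5.77 to −2.50 and −11.90 to −9.93. Signs turned for the Tcl1b sum in KD ESC, where all values are near 0, for Mtcp1 in KO arrest against KO embryo (0.18, 0.002 and 0.78 without KO embryo 1, KO embryo 2 and KO arrest 1, from a range of −0.88 to 0.78), for Tcl1 in the difference of effects (0.63 without control embryo 2, from a range of −2.65 to 0.63), and for the Tcl1 share in KO embryos (−0.727 percentage points without control embryo 1, 19.4 without control embryo 2) and in KD ESC (0.345 without KD ESC 2, −1.49 without KD ESC 1). The cause was not tested. Scaling moved the share of calls that were higher: with median-of-ratios from 76.4% to 35.3% in KO embryos and from 64.9% to 45.1% in KO arrest against controls, from 41.6% to 55.1% in KD ESC, from 76.4% to 62.3% in control ESC and from 76.8% to 38.8% in the difference of effects, with quantile normalization to 58.6%, 50.6%, 50.1%, 57.3% and 64.1%, and with TPM from 57.4% to 29.0% in KO arrest against KO embryo (quantile 46.6%) and to 50.0% in KO arrest against controls. The median of all genes in KO embryos moved from 0.31 to −0.05 with median-of-ratios scaling, while the members' median was −2.37 and −3.06; in KO arrest against controls it moved from 0.45 to 0.02 (members −5.44 and −6.15), and in KO arrest against KO embryo from 0.07 to −0.28 with TPM (members −3.23 and −3.76). FPKM carries no read number, so no counting error can be given, and no limit of detection for the Tcl1b genes in ESC.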
